A study of Rattus norvegicus with 17 samples.

Results

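In the prefrontal cortex of rats, 1093 of 146069 nuclei carried Galnt14 and Rxfp1 together with few or no UMIs of Gad1, Gad2 and Foxp2, and Drd2, the dopamine D2 receptor, stood well above its level in other excitatory nuclei of the same depth. A nucleus was counted as such a Galnt14 Rxfp1 nucleus when it held at least 3 UMIs of Galnt14, at least 3 of Rxfp1, under 2 of Gad1 and Gad2 together, under 3 of Foxp2 and at least 3000 in all. UMIs, the tags that tell captured transcripts apart, were the unit of count. The nuclei were thus chosen by measured counts, so the levels of these genes, and of Drd2 and Slc26a4, which are part of the group's description, are given with no test. A raised Drd2 level was not particular to these nuclei. Pooled over libraries, nuclei with 3 or more Galnt14 UMIs and 0 of Rxfp1 had a like level. Galnt14 Rxfp1 nuclei over the Foxp2 limit had a higher one, as given below.

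The data are RNA counts of single nuclei from flash-frozen prefrontal cortex in 17 libraries. The labels describe 4 groups of rats: wild type control (4), wild type with stress (4), Srd5a2 knockdown control (5) and Srd5a2 knockdown with stress (4), where the stress was a forced swim and Srd5a2 encodes 5α-reductase type 2, which makes neurosteroids. How the knockdown was made, and the strain and age of the rats, are not given in the sources used here. The deposited table names its libraries by sets, and only the set of 5 could be tied to a group, the Srd5a2 knockdown control. This is an inference from the names that the level of Srd5a2 itself did not bear out, so they appear below as the 5 libraries labelled knockdown control. Tests were made between classes of nuclei within them. The other 12 libraries are unassigned and are given as a range and median, so neither the knockdown nor the stress was compared in these nuclei.

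Excitatory neurons of the cortex fall into types that sit in different layers and send axons to different targets, and each type carries its own set of receptors. Dopamine reaches the prefrontal cortex from the ventral midbrain. D2 receptors act through inhibitory G proteins, and in the cortex they are known on sparse pyramidal cells of the deep layers and on some interneurons. Rxfp1 encodes the receptor for the peptide relaxin, Galnt14 an enzyme that begins mucin-type O-glycosylation in the Golgi, and Slc26a4 pendrin, an exchanger of chloride for bicarbonate or iodide.

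Of all nuclei, 6740 had 3 or more Galnt14 UMIs, 5541 had 3 or more Rxfp1 UMIs and 1440 had both. The Gad limit took away 82 of the 1440, the Foxp2 limit 265, and the depth limit 0. The 1093 that were left made up 0.748% of nuclei. In the 5 libraries labelled knockdown control they numbered 32, 16, 79, 111 and 89 (replicates 1 to 5), which is 0.705% ± 0.405 (SD, n = 5) of nuclei and 3.64% ± 1.62 of excitatory nuclei. The 12 unassigned libraries held 766 of them, from 16 to 166 each, at 0.185% to 1.81% of nuclei (median 0.640%) and 1.15% to 7.79% of excitatory nuclei (median 3.21%). The share thus ran from 0.212% to 1.16% of nuclei among the 5 libraries of 1 label alone. Replicate 2, with 24920319 UMIs in all, was the shallowest of these 5 and had the fewest Galnt14 Rxfp1 nuclei, so its values are the least precise. Excitatory nuclei here were all Galnt14 Rxfp1 nuclei plus the others with 2 or more UMIs of the excitatory marker Slc17a7 and the same Gad and depth limits. Of the 1093, 728 held 2 or more Slc17a7 UMIs, so the share of excitatory nuclei counts some that miss the limit set for the rest.

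The Galnt14 Rxfp1 nuclei were deeply sequenced, with a median of 16732 UMIs (quartiles 11590 and 23149) and 4189 genes, against 8287 UMIs in other excitatory nuclei. A rule that asks for 3 UMIs of 2 genes favours deep nuclei. The edgeR comparisons, and the levels called depth-matched, therefore used nuclei drawn in equal numbers per library and per bin of 1000 UMIs. Marker sums, shares of nuclei with a UMI and the other levels used all nuclei of a class.

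The label of excitatory neurons was set beside the markers, of which Gad1, Gad2 and, in the comparison class, Slc17a7 were part of the rules. Slc17a7, the vesicular glutamate transporter, was found in 939 of the 1093 nuclei (85.9%, exact 95% interval 83.7% to 87.9%), and the 8 excitatory markers summed to 1611 to 1911 CPM (UMIs of the gene scaled to the same total in every class) in the 5 libraries, beside 1695 to 1841 CPM in other excitatory nuclei. In depth-matched nuclei Slc17a7 itself was at 146 ± 15.7 CPM against 214 ± 49.8 CPM in other excitatory nuclei, which had to hold 2 or more of its UMIs, and was lower in 5 of 5 libraries. The 12 inhibitory markers, of which 3 passed 10 CPM, summed to 40.7 to 58.5 CPM, below the 104 to 237 CPM of other excitatory nuclei, but in the 12 unassigned libraries they ran from 44.96 to 290.5 CPM (median 91.1) against 94.4 to 263 CPM, and these ranges overlapped. Astrocyte markers summed to 255 to 394 CPM against 524 to 736 CPM, oligodendrocyte markers to 106 to 223 CPM against 143 to 472 CPM, and microglia markers to 63.2 to 114 CPM against 95.4 to 145 CPM (8 genes in each list, 0 of them at 0). These sums were not matched in depth. In depth-matched nuclei, astrocyte markers gave 0 higher and 1 lower of 6 tested in edgeR (median log2 difference -0.18). Oligodendrocyte and microglia markers gave 0 higher and 0 lower of 3 each (medians -0.03 and -0.06). Of all genes tested there, 4.09% were higher and 5.89% lower. The part of these glial transcripts in the results was not tested, and 1061 of the 1093 nuclei held 3 or more glial or vascular UMIs. Doublet scores of 0.25 or more were given to 0.458% of the Galnt14 Rxfp1 nuclei and to 1.86% of all nuclei. The libraries shared 2690 of 143355 cell barcodes, and 0 barcodes were shared by Galnt14 Rxfp1 nuclei of different libraries.

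The level of Drd2 in the Galnt14 Rxfp1 nuclei was 20.6, 39.4, 23.9, 14.0 and 31.8 CPM in replicates 1 to 5 of the libraries labelled knockdown control, a mean of 25.9 ± 9.89 CPM (SD, n = 5) from 148 UMIs. In the unassigned libraries it ran from 4.77 to 32.3 CPM with a median of 14.1, and 6 of the 12 lay below the lowest of the 5. All 5 labelled libraries thus carried the receptor, replicate 4 least and replicate 2 most. In nuclei matched in depth, Drd2 stood at 27.8 ± 9.66 CPM in Galnt14 Rxfp1 nuclei and 2.86 ± 2.91 CPM in other excitatory nuclei, higher in 5 of 5 and in 12 of 12 libraries. The ranges of the 5 did not overlap (13.7 to 39.4 and 0 to 7.63 CPM). Those of the 12 unassigned libraries did, at 5.23 to 42.7 CPM (median 14.0) and 0 to 13.8 CPM (median 2.71).

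The Cux2, Rorb and Foxp2 classes were low in Drd2. Without matching, it stood at 0.638 ± 0.483 CPM in Cux2 nuclei (upper layers), 2.50 ± 1.45 CPM in Rorb nuclei (middle layers) and 2.79 ± 1.41 CPM in Foxp2 nuclei (layer 6). The Rorb and Foxp2 levels differed by less than their spread. Among the depth-matched Cux2 nuclei 0 Drd2 UMIs were counted in the 5 libraries. Inhibitory nuclei came to 10.5 CPM and microglia to 0.290 CPM over all 17 libraries, below the 15.2 CPM of the Galnt14 Rxfp1 nuclei.

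**Figure D1:**
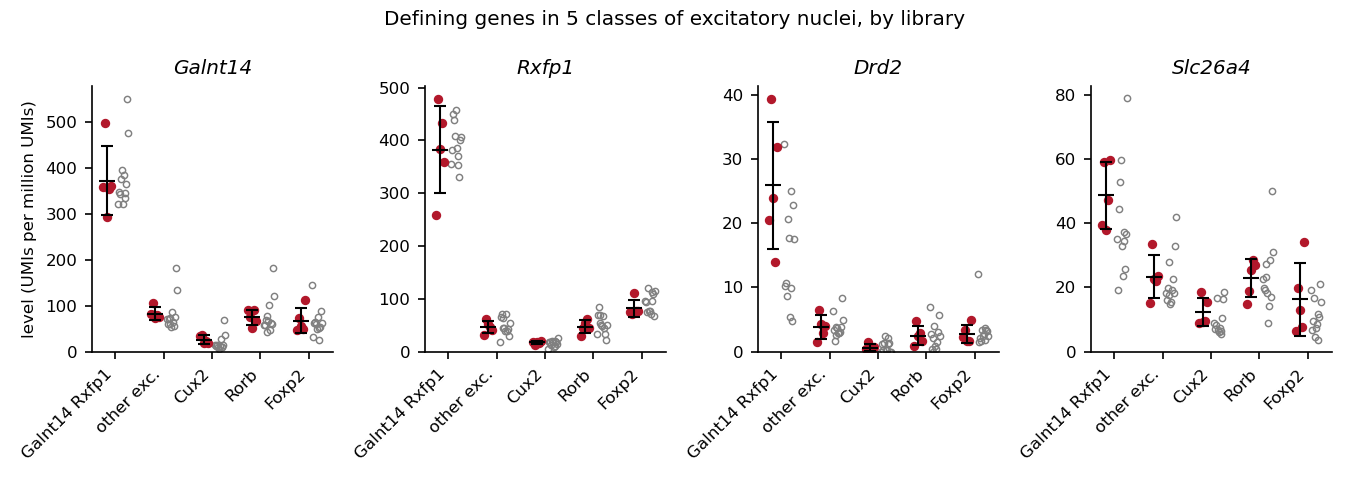
Levels of Galnt14, Rxfp1, Drd2 and Slc26a4 (y axis, CPM) in the Galnt14 Rxfp1 nuclei, other excitatory nuclei and the Cux2, Rorb and Foxp2 classes, all nuclei without depth matching. Filled points are the 5 libraries labelled knockdown control with their mean and SD (bars), and open points the 12 unassigned libraries. Drd2 in the Galnt14 Rxfp1 nuclei lies at 14.0 to 39.4 in the filled points, above every filled point of the other classes.

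Most single nuclei showed no Drd2. Over all libraries 167 of 1093 (15.3%, exact interval 13.2% to 17.6%) had at least 1 Drd2 UMI, of which 89 had 1 and the highest count was 7. The share was 2.44% (481 of 19716) in other excitatory nuclei, 5.66% in inhibitory nuclei and 0.0697% in microglia (2 of 2871, at a median of 1842 UMIs), which should lack the gene. After each nucleus was thinned to 3000 UMIs, with none of the excitatory nuclei left out, the shares were 4.67% and 1.00%. In the 5 labelled libraries the share was 23.7% ± 6.58 before and 6.24% ± 3.35 after thinning. Intervals of this kind cover counting error only.

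Slc26a4 was found in 479 of the 1093 nuclei (43.8%), against 15.2% of other excitatory nuclei, and in 12.4% against 6.21% after thinning. Its level was 39.5, 59.1, 37.8, 47.4 and 59.7 CPM in replicates 1 to 5. In the unassigned libraries it ran from 19.2 to 78.95 CPM, and 8 of the 12 lay below the lowest of the 5. Depth-matched other excitatory nuclei had 19.2 ± 8.92 CPM, below 49.8 ± 9.20 in the Galnt14 Rxfp1 nuclei, with ranges that did not overlap in the 5 labelled libraries. It was higher in 12 of 12 unassigned libraries, where the ranges overlapped (22.0 to 99.9 and 9.31 to 64.2 CPM). Pooled over all libraries without matching, nuclei with 3 or more Galnt14 UMIs had 47.3 CPM at 0 Rxfp1 UMIs and 46.35 CPM at 2. Those with 3 or more Rxfp1 UMIs had 21.5 CPM at 0 Galnt14 UMIs and 27.4 CPM at 2. A raised Slc26a4 level was thus not particular to the Galnt14 Rxfp1 nuclei. Drd2 and Slc26a4 met in 99 nuclei, while 68 had Drd2 alone, 380 Slc26a4 alone and 546 neither. Slc26a4 was thus seen in 59.3% of the nuclei with Drd2 and 41.0% of those without, at median depths of 16660 and 16766.5 UMIs. In the 5 labelled libraries the shares lay closer, at 57.5% and 50%, with median depths of 15890 and 17993 UMIs. After thinning the shares were 27.5% and 11.7% over all libraries but 14.3% and 13.1% in the labelled ones, where 21 thinned nuclei held Drd2 and 3 of them Slc26a4. The difference between nuclei with and without Drd2 was not tested.

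The other dopamine receptors were low or not found. Drd1 was at 1.26 ± 1.31 CPM in the 5 libraries (12 UMIs), close to the 1.99 ± 0.506 CPM of other excitatory nuclei. Drd3, Drd4 and Drd5 had 0 UMIs in the Galnt14 Rxfp1 nuclei of these libraries, and over all 17 libraries each was found in 1 of the 1093 nuclei. Of the relaxin receptors, Rxfp2 was at 12.1 ± 6.37 CPM against 3.39 ± 0.526 CPM in other excitatory nuclei and Rxfp3 had 0 UMIs. The ligand genes Rln1, Rln3 and Insl3 had 3, 0 and 1 UMIs.

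The levels of Drd2 that follow were pooled over all 17 libraries and not compared by library or at matched depth. Among nuclei just outside the rule, those with 3 or more Galnt14 UMIs and 0 of Rxfp1 (1236 nuclei) had 15.9 CPM of Drd2, near the 15.2 CPM inside it. Those with 3 or more Rxfp1 UMIs and 0 of Galnt14 (543 nuclei) had 0.940 CPM from 7 UMIs. Their median depth was 12065 UMIs beside 11118 for the former. Both sets met the other limits and also had to hold 2 or more Slc17a7 UMIs. The rule does not ask for this, and 728 of the 1093 nuclei inside it met it. Just inside the threshold, nuclei with exactly 3 of both (63 nuclei) had 11.3 CPM. Just outside it, those with 2 Galnt14 and 3 or more Rxfp1 UMIs (395) had 9.68 CPM and those with 3 or more Galnt14 and 2 Rxfp1 UMIs (338) had 16.2 CPM, while those with 2 of both (185) had 15.35 CPM from 26 UMIs at a median depth of 7723 UMIs. The 265 nuclei set aside for Foxp2 had 26.2 CPM of Drd2, with 37.2 CPM where Foxp2 was 3 to 5 and 17.3 CPM where it was 6 or more. The Foxp2 limit therefore does not mark an edge of the Drd2 signal.

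The Galnt14 Rxfp1 nuclei were compared first with other excitatory nuclei (Slc17a7 at least 2 UMIs, the same Gad, Foxp2 and depth limits), to ask what else sets them apart. The sums came from 305 nuclei of each class, 16 to 105 per library. Of 8897 genes tested with edgeR, 888 (9.98%) passed, of which 364 (4.09%) were higher and 524 (5.89%) lower in the Galnt14 Rxfp1 nuclei at an adjusted p under 0.05, and 436 (4.90%) did not overlap between the classes over the 5 libraries. Both classes came from the same library, which entered the fit as a block. Without the block 161 were higher and 290 lower. With nuclei of 3 or more glial or vascular UMIs left out, 9 Galnt14 Rxfp1 nuclei in 3 libraries remained, of which 7 were matched in depth with 7 others, and 0 of 143 genes passed in edgeR (9 at an unadjusted p under 0.05). Log2 differences below are those of this fit, in which deeper libraries weigh more, each with its standard error.

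Of 20 glutamate receptor genes tested, 3 were higher and 3 lower (median log2 difference -0.01). Of all genes tested, 4.09% were higher and 5.89% lower. Grm8 and Grik3 were among the named genes that were higher. Grm8, a presynaptic metabotropic glutamate receptor, was at 2332, 1208, 1970, 1658 and 1702 CPM in replicates 1 to 5 against 557, 627, 671, 568 and 557 CPM in other excitatory nuclei. No library overlapped. In edgeR, Grm8 differed by 1.58 ± 0.10 on the log2 scale (SE; adjusted p = 4.9e-15), and it was higher in 12 of 12 unassigned libraries as well. Grik3, a kainate receptor subunit, was at 190 ± 109 CPM against 50.6 ± 12.4 CPM (SD, n = 5; log2 difference 1.68 ± 0.13, edgeR adjusted p = 1.2e-15). Replicate 2 stood above the rest for Grik3, at 381 CPM against 118 to 175 CPM.

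The other named genes that were higher spanned secreted factors, adhesion and signalling. Pappa2, a protease that frees insulin-like growth factors from their binding proteins, had the largest difference, 3.18 ± 0.54 (edgeR adjusted p = 0.0012), at 11.3, 72.2, 17.7, 26.8 and 26.7 CPM against 0 to 7.58 CPM. Tgfb2, a growth factor, was at 45.6 ± 15.7 CPM against 13.1 ± 5.70 CPM. Cntnap4, a contactin-associated adhesion protein, was at 462 ± 84.3 CPM against 160 ± 43.2 CPM (log2 difference 1.50 ± 0.10), and Astn2, an astrotactin, at 578 ± 74.2 CPM against 194 ± 48.6 CPM. These genes did not overlap between the classes. The remaining ones were St3gal1 (2.28 ± 0.37), a sialyltransferase that caps O-linked glycans, Clic5 (2.04 ± 0.33), Gna14 (1.74 ± 0.31), a G protein subunit of the Gq family, Plekhg3 (1.67 ± 0.26), Eya1 (1.50 ± 0.21), Abca17 (1.46 ± 0.23), Zfp804a (1.45 ± 0.10), Nr4a3 (1.44 ± 0.16) and Olfm3 (1.41 ± 0.13), of which Clic5 and Nr4a3 overlapped. Plekhg3 and Astn2 did not pass with at least 4 UMIs of both rule genes (edgeR adjusted p = 0.076 and 0.15).

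Genes of the upper layers were lower. All 8 layer 2-3 markers were tested and all 8 were lower, with a median log2 difference of -1.996 beside -0.00031 over all genes tested. Cux2, a homeobox factor of upper-layer neurons, was at 26.4, 0, 11.04, 30.6 and 20.3 CPM against 138, 111, 145, 195 and 200 CPM, with no overlap (log2 difference -3.05 ± 0.16, edgeR adjusted p = 1.3e-19). Glis3, a zinc finger factor, was nearly absent, at 3.57 ± 4.64 CPM against 324 ± 68.0 CPM (log2 difference -6.75 ± 0.22, edgeR adjusted p = 2.0e-18). Rfx3, a factor of ciliary genes, was at 144 ± 32.3 CPM against 794 ± 63.2 CPM, and Ntf3, neurotrophin-3, at 4.42 ± 2.69 CPM against 58.6 ± 14.5 CPM.

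The other named genes that were lower were Thsd7a (-4.66 ± 0.15), Gpc3 (-4.41 ± 0.18), a glypican, Tox3 (-4.04 ± 0.26), Sfmbt2 (-3.77 ± 0.33), Tafa2 (-3.53 ± 0.22), Fat4 (-3.36 ± 0.31), an atypical cadherin, Ccbe1 (-3.32 ± 0.17), Bche (-3.11 ± 0.33), butyrylcholinesterase, Matn2 (-3.08 ± 0.21), Car12 (-2.63 ± 0.31), a carbonic anhydrase, and Pcdh8 (-2.55 ± 0.39), a protocadherin. In the 12 unassigned libraries all 15 named genes were lower in each, except Pcdh8, which was higher in 2. Thsd7a did not pass with at least 2 UMIs of both rule genes (edgeR adjusted p = 0.087).

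**Figure D2:**
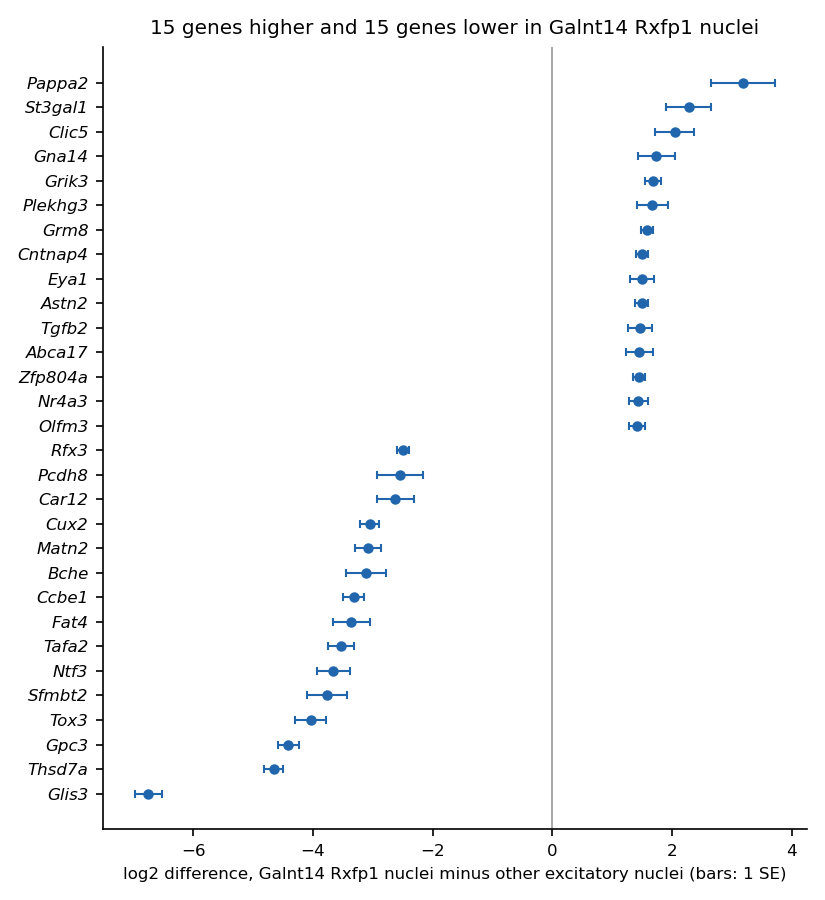
Log2 difference (x axis) between the Galnt14 Rxfp1 nuclei and depth-matched other excitatory nuclei for the 15 genes with the largest difference in each direction by the naming rule, from edgeR over 5 libraries, with 1 standard error as bars. The lower genes reach -6.75 (Glis3), while the higher ones end at 3.18 (Pappa2).

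Among the genes of dopamine signalling other than Drd2, 1 of 20 tested was higher and 4 were lower (median log2 difference -0.01), where 4.09% of all genes tested were higher and 5.89% lower. The share that was higher is thus near that of all genes. The counts of the other lists in this comparison with other excitatory nuclei are to be read against the same shares. Gnal, the stimulatory G protein subunit that couples D1 receptors in the striatum, was at 16.6 ± 12.3 CPM against 67.0 ± 11.3 CPM, with no overlap (log2 difference -1.89 ± 0.20, edgeR adjusted p = 1.3e-08). Rgs8, a brake on G protein signals, was lower as well (-1.01 ± 0.19), though 4 of 12 unassigned libraries went the other way. Pde10a, a phosphodiesterase that breaks down cyclic nucleotides, was higher (0.37 ± 0.09), but its ranges overlapped and it did not pass without the block, with at least 2 or at least 4 UMIs of both rule genes, or from 5000 UMIs on.

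Genes near the study's own subject were unevenly placed. Of 11 genes of steroid synthesis and steroid receptors tested, 1 was higher and 5 were lower, with a median log2 difference of -0.53. Nr3c2, the mineralocorticoid receptor, was at 47.1, 52.5, 104, 54.7 and 58.4 CPM against 127, 144, 209, 153 and 112 CPM. The highest Galnt14 Rxfp1 library lay below the lowest of the others (log2 difference -1.19 ± 0.12, edgeR adjusted p = 2.2e-11), although 3 of 12 unassigned libraries went the other way. Pgr, the progesterone receptor, was at 24.7 ± 7.15 CPM against 48.6 ± 5.86 CPM and Cyp7b1, which hydroxylates neurosteroids, at 11.1 ± 5.75 CPM against 24.6 ± 14.8 CPM (log2 differences -0.95 ± 0.18 and -1.64 ± 0.25). Cyp7b1 was lower in 4 of 5 libraries. Pgr did not pass without depth matching (edgeR adjusted p = 0.084).

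Esr1, oestrogen receptor alpha, was the gene of this list that was higher, at 9.42, 13.1, 8.83, 14.2 and 19.0 CPM against 3.79, 6.53, 4.45, 10.4 and 2.54 CPM. It was higher in each of the 5 libraries, with overlapping ranges (log2 difference 1.22 ± 0.35, edgeR adjusted p = 0.013), and did not pass with DESeq2 or without the block (highest adjusted p of edgeR and DESeq2 0.14). Srd5a2 had 0 UMIs in the Galnt14 Rxfp1 nuclei of the 5 libraries, and Srd5a1, 5α-reductase type 1, was at 4.53 ± 2.35 CPM against 3.60 ± 0.346 CPM.

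All 12 GABA-A receptor subunits were tested, and 2 were higher and 5 lower. Gabra2 was at 228, 263, 209, 195 and 227 CPM against 523, 346, 361, 367 and 362 CPM, with no overlap (log2 difference -0.84 ± 0.09, edgeR adjusted p = 6.6e-10). Gabrd, the subunit of extrasynaptic receptors that neurosteroids act on most strongly, was at 4.28 ± 2.06 CPM against 14.7 ± 2.96 CPM (-1.77 ± 0.35). Gabra5, another extrasynaptic subunit, was higher, at 69.6 ± 3.62 CPM against 39.3 ± 18.1 CPM (0.92 ± 0.16).

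Immediate early genes, which neurons switch on after activity, gave 3 higher and 0 lower of 8 tested, with a median log2 difference of 0.29. Nr4a3, an orphan nuclear receptor, was at 54.6, 65.7, 30.2, 71.1 and 175 CPM against 19.0, 13.1, 9.63, 31.7 and 59.8 CPM. Bdnf, a neurotrophin, was at 104, 171, 58.1, 120 and 173 CPM against 32.2, 13.1, 28.2, 61.9 and 73.1 CPM. Both were higher in each library while their ranges overlapped (log2 differences 1.44 ± 0.16 and 1.23 ± 0.14, edgeR adjusted p = 2.2e-10 and 4.4e-09). Nr4a1 was higher too (0.88 ± 0.20). None of these 3 passed without the block (edgeR adjusted p = 0.35 for Nr4a3). Bdnf and Nr4a1 also did not pass without nuclei of doublet scores of 0.25 or more. That setting kept 326 of 327 Galnt14 Rxfp1 nuclei but also drew the matched nuclei anew. The part of doublets thus cannot be told from that of the draw. Bdnf also did not pass with at least 2 UMIs of both rule genes. The highest edgeR adjusted p over the alternatives was 0.25 for Bdnf and 0.67 for Nr4a1. In the unassigned libraries Bdnf was higher in 9 of 12 and Nr4a1 in 8 of 12.

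Receptors for peptides, opioids and cannabinoids gave 3 higher and 2 lower of 10 tested. Cnr1, the cannabinoid CB1 receptor, was at 164 ± 21.8 CPM against 88.9 ± 19.9 CPM with no overlap (log2 difference 0.88 ± 0.11, edgeR adjusted p = 2.1e-08). Oprd1, the delta opioid receptor, was at 80.2 ± 20.6 CPM against 39.3 ± 7.66 CPM (1.02 ± 0.15). Its ranges overlapped. Tacr1, the substance P receptor, was lower (-2.91 ± 0.39), in 4 of 5 libraries. All 12 unassigned libraries had Cnr1 and Oprd1 higher and Tacr1 lower.

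Genes of axon guidance gave 10 higher and 6 lower of 31 tested (median 0.23), among them Dcc, the netrin receptor, at 2021 ± 432 CPM against 814 ± 251 CPM (1.31 ± 0.11) and Epha6, an ephrin receptor, at 462 ± 94.6 CPM against 1459 ± 249 CPM (-1.71 ± 0.11). Cortical transcription factors gave 7 higher and 10 lower of 38. Sox5, a factor of deep-layer neurons, was at 594 ± 78.8 CPM against 258 ± 48.8 CPM with no overlap (1.22 ± 0.09), and Cux1 and Nfib were lower (-1.43 ± 0.14 and -1.38 ± 0.13). The deep-layer marker lists were mixed. Layer 5 markers gave 0 higher and 0 lower of 3 (intratelencephalic) and 1 and 1 of 3 (extratelencephalic). Near-projecting markers gave 0 higher and 1 lower of 2. Layer 6 markers gave 1 and 1 of 2 (intratelencephalic) and 0 and 0 of 4 (corticothalamic). Cadherins and protocadherins gave 3 higher and 8 lower of 21, and potassium and HCN channels 5 higher and 9 lower of 38. Mucin-type O-glycosylation, the pathway of Galnt14, gave 1 higher (Galnt9, 0.67 ± 0.15) and 3 lower of 16 besides Galnt14 itself, so that its share of higher genes too was near the 4.09% of all genes. No list count was tested against these shares.

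**Figure D3:**
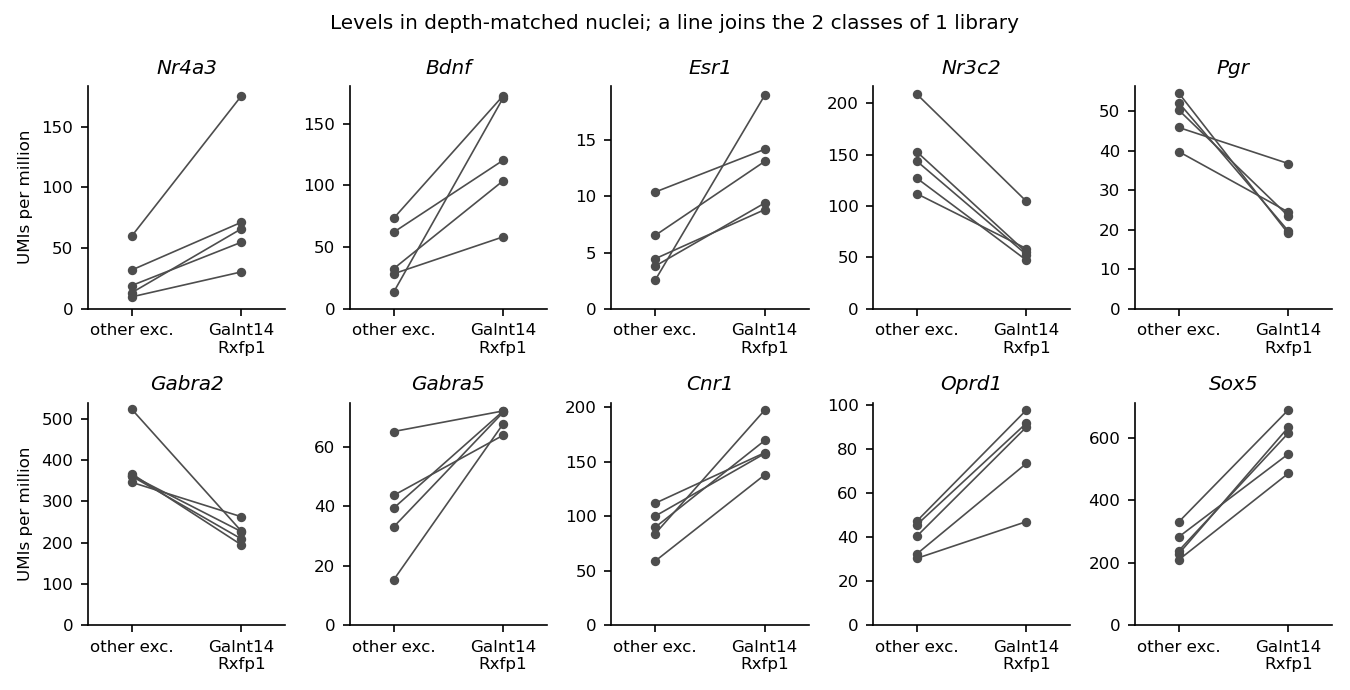
Levels (y axis, CPM) of 10 genes named from the lists in depth-matched other excitatory nuclei (left) and Galnt14 Rxfp1 nuclei (right), where each line joins the classes of 1 of the 5 libraries labelled knockdown control. Nr3c2, Pgr and Gabra2 go down in every library and the other genes go up in every library, with Nr4a3 highest in 1 library at 175.

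The Rorb, Foxp2 and Cux2 classes were then taken singly, to ask which is closest. In depth-matched nuclei the Rorb class differed least by count, with 281 genes higher (3.46%) and 364 lower (4.49%) of 8110 tested. This was on 249 nuclei a class (645 or 7.95% in all, 4.3% not overlapping). Against Foxp2 nuclei 572 were higher (6.55%) and 499 lower (5.71%) of 8732, on 290 nuclei (12.3% in all, 7.07% not overlapping), and against Cux2 nuclei 753 were higher (8.87%) and 809 lower (9.53%) of 8493, on 284 nuclei (18.4% in all, 8.8% not overlapping). These counts follow the number of nuclei too, and the difference between them was not tested. Without replicate 5 the Rorb counts were 154 and 214, the Foxp2 counts without replicate 3 were 376 and 307, and without replicate 4 the higher count was 374. Without the block the Rorb counts were 134 and 184 and the Cux2 counts 459 and 508. Without depth matching the order turned, and fewer genes passed in all against Foxp2 nuclei than against Rorb nuclei.

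Against Rorb nuclei, Sema3e, a guidance cue of deep-layer projection neurons, was at 126 ± 38.8 CPM against 18.6 ± 17.5 CPM (SD, n = 5; log2 difference 2.64 ± 0.21, edgeR adjusted p = 8.4e-09). Adamts3, a matrix protease, was at 159 ± 43.0 CPM against 15.6 ± 14.9 CPM (3.32 ± 0.40), and Eya1 (2.56 ± 0.35), Anxa4 (2.63 ± 0.27) and Thsd7b (2.53 ± 0.15) were higher as well. Thsd7a was lower, at 14.0 ± 13.8 CPM against 633 ± 148 CPM (-5.56 ± 0.17), followed by Zbtb7c (-3.27 ± 0.47), Ankfn1 (-3.25 ± 0.31), Vwa5b1 (-2.95 ± 0.70) and Tox3 (-2.78 ± 0.34). Vwa5b1 did not pass with DESeq2 or without replicate 2. Of 19 tested genes of dopamine signalling 0 passed in edgeR, where 7.95% of all genes tested against Rorb nuclei passed. For a list of 19 genes, 0 is near that share. Oprd1 (1.19 ± 0.16) and Bdnf (1.397 ± 0.155) were again higher. Their lists gave 2 higher and 2 lower of 9 tested (peptide, opioid and cannabinoid receptors) and 2 higher and 1 lower of 8 (immediate early genes). Of all genes tested against Rorb nuclei, 3.46% were higher and 4.49% lower. Sema3e did not pass against all other excitatory nuclei (edgeR adjusted p = 0.095), although it was higher in 5 of 5 libraries there. Over all libraries it was found in 54.0% of Galnt14 Rxfp1 nuclei, 52.6% of Foxp2 nuclei and 39.3% of oligodendrocyte nuclei. After thinning, the shares were 29.3% of Galnt14 Rxfp1 nuclei, 32.3% of Foxp2 nuclei and 48.6% of oligodendrocyte nuclei. The share of oligodendrocyte nuclei, then the highest of these, is of 1013 nuclei, as 4399 were left out of the thinning.

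Against Cux2 nuclei, whose upper-layer genes are far from those of the Galnt14 Rxfp1 nuclei, the most genes passed. Irak3, a brake on interleukin-1 receptor signals, had the largest difference (5.44 ± 0.50), at 21.2 ± 7.99 CPM against 0.261 ± 0.359 CPM, a fitted value that rests on 2 UMIs in the Cux2 nuclei. Il1rapl2, a synaptic protein of the interleukin-1 receptor family, was at 1522 ± 189 CPM against 49.3 ± 39.8 CPM (SD, n = 5; log2 difference 5.07 ± 0.49, edgeR adjusted p = 0.0027), and Sema3e at 129 ± 35.4 CPM against 5.47 ± 4.46 CPM (5.05 ± 0.21). Grik3 (5.00 ± 0.24) and Cadps2 (4.41 ± 0.39) were next. Glis3 (-7.997 ± 0.215), Gpc3 (-4.95 ± 0.19), Tox3 (-4.88 ± 0.22), Arhgap6 (-4.37 ± 0.33) and Kcnk13 (-4.18 ± 0.37), a potassium channel, were the lowest. Peptide and opioid receptors were higher in 5 and lower in 1 of 10 tested, where 8.87% of all genes tested were higher and 9.53% lower. The higher receptors included Tacr3 (2.73 ± 0.28), the neurokinin B receptor, and Oprm1 (1.95 ± 0.14), the mu opioid receptor.

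Against Foxp2 nuclei of layer 6, genes of corticothalamic neurons were lower. The classes were split by Foxp2, itself a marker of these neurons, so this follows in part from the rules. Over all libraries, the 265 Galnt14 Rxfp1 nuclei set aside for Foxp2 held Hs3st4 at 1470 CPM and Tle4 at 341 CPM. Galnt14 Rxfp1 nuclei with 0 Foxp2 UMIs held them at 146 and 58.6 CPM. Of 5 tested layer 6 corticothalamic markers 4 were lower, beside 5.71% of all genes tested against Foxp2 nuclei, among them Syt6, at 1.102 ± 1.204 CPM against 88.3 ± 47.0 CPM (SD, n = 5; log2 difference -5.75 ± 0.30, edgeR adjusted p = 4.6e-10), and Hs3st4, at 183 against 3001 CPM (-4.11 ± 0.47). Plce1 (-5.91 ± 0.60), Cyct (-4.95 ± 0.44), Dnah6 (-4.61 ± 0.39) and Zfpm2 (-4.56 ± 0.48) were lower, where the fitted values of Plce1 and Cyct rest on 1 and 3 UMIs in the Galnt14 Rxfp1 nuclei, and Col8a1 (3.93 ± 0.40), Trpc6 (3.59 ± 0.29), Pde7b (3.57 ± 0.14), Sntg2 (3.48 ± 0.32) and Lama2 (3.43 ± 0.35) higher. Lama2 did not pass in a second draw of matched nuclei, without matching or with at least 2 UMIs of both rule genes. Monoamine and acetylcholine receptors gave 4 higher and 5 lower of 15 tested against Foxp2 nuclei. Receptors for peptides, opioids and cannabinoids gave 3 higher and 3 lower of 12, and immediate early genes 2 higher and 0 lower of 8. Of all genes tested, 6.55% were higher and 5.71% lower. Among the higher genes of these lists, Bdnf was at 125 against 12.1 CPM (2.89 ± 0.22). Htr2a, a serotonin receptor of pyramidal cells, was at 60.8 against 11.4 CPM (2.56 ± 0.22). Crhr1, the receptor of the stress peptide CRH, was at 34.3 against 4.42 CPM (2.66 ± 0.38). Grm8, by contrast, was lower than in Foxp2 nuclei (-0.46 ± 0.13), a call that did not hold with DESeq2, without the block, without depth matching, or without replicate 2 or 4.

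The Galnt14 Rxfp1 nuclei were not uniform. Clustering all 1093, with library means taken out and the rule genes, Drd2 and Slc26a4 left out, gave 7 subgroups of 305, 230, 225, 117, 96, 81 and 39 nuclei. Each came from 12 or more libraries, and no library gave more than 24.7% of one. None had 3 of a named class's markers among its 10 leading genes, so they are numbered only. As clusters of the nuclei compared, they are described with no test.

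Drd2 was concentrated in subgroups 3 and 6. It was found in 73 of 225 nuclei of subgroup 3 (32.4%, exact interval 26.4% to 39.0%) and 37 of 81 of subgroup 6 (45.7%, 34.6% to 57.1%), and these 28.0% of nuclei held 67.4% of the Drd2 UMIs. In subgroup 2 it was found in 2 of 230 (0.870%, 0.106% to 3.11%), although its nuclei were the deeper ones, with a median of 17081 UMIs beside 14707 in subgroup 3 and 14349 in subgroup 6. The shares in subgroups 1, 4, 5 and 7 were 12.1%, 11.97%, 3.13% and 2.56%. By library, the share in subgroups 3 and 6 together was 33.3% to 62.5% in the 5 labelled libraries and 15.4% to 100% in the others (the highest from 3 nuclei). These subgroups were singled out by their Drd2 share, so the values by library restate that choice.

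**Figure D4:**
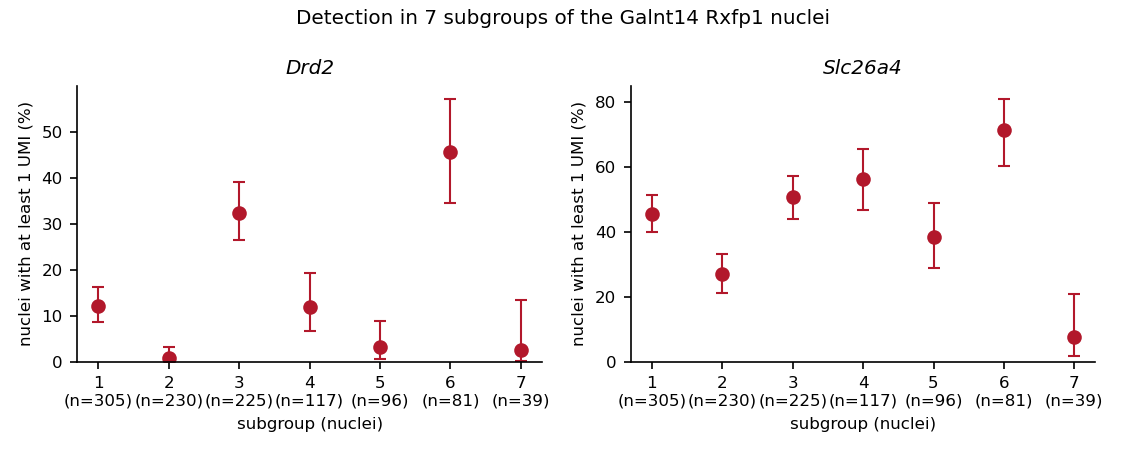
Share of nuclei with at least 1 UMI (y axis, percent) of Drd2 (left) and Slc26a4 (right) in the 7 subgroups of the Galnt14 Rxfp1 nuclei over all 17 libraries, with exact 95% binomial intervals as bars. Drd2 is highest in subgroup 6 (45.7%) and subgroup 3 (32.4%) and lowest in subgroup 2 (0.870%), and Slc26a4 is highest in subgroup 6 (71.6%).

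Subgroups 3 and 6, with the highest Drd2 shares, had different leading genes. Subgroup 3 led with Scg2, Bdnf, Corin, Alkal2, Tll1, Tiparp, Sorcs3, Plekha2, Pappa2 and Fosl2, several of which are activity genes, and held Bdnf at 320 CPM and Nr4a3 at 199 CPM, while Bdnf stood at 124.5 CPM or less in the other subgroups. Subgroup 6 led with Adamts2, Plcxd3, Adamtsl1, Gpr149 and Sema3e, and had the most Sema3e, 696 CPM, at only 43.3 CPM of Bdnf. Subgroup 3 made up 15.6% to 29.2% of the nuclei in the 5 labelled libraries and 12.5% to 35.7% in the others, and subgroup 6 made up 0 to 12.5% and 1.52% to 12.1%.

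The other subgroups were set apart by other genes. Subgroup 2 led with Col25a1, Cdh9 and Megf11 and had 6.65 CPM of Rorb. Subgroup 5 led with Cux2 and held Rorb at 287 CPM, and subgroup 7 led with Hs3st4 (4586 CPM) and Tshz2 (632 CPM), genes of corticothalamic and near-projecting neurons. Subgroup 1, the most numerous, led with Etv1, a layer 5 factor, at 157 CPM and had Grm8 at 2630 CPM. Subgroup 4 led with Erbb4, Adarb2 and Grik1, genes that are also known from inhibitory neurons.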

How the data were processed

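The authors deposited 1 table of UMI counts (772120507 UMIs in 146069 nuclei and 19298 genes), and Cell Ranger and Seurat 4.1 are named per the submitters' processing notes. The genome build is not given in the sources used here. The members and gene lists were chosen with earlier results of these data known.

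Counts were summed per library and class over depth-matched nuclei and tested with edgeR 4.0.16 (R 4.3.3), using quasi-likelihood with the library as a block, TMM scaling, filterByExpr and Benjamini-Hochberg adjustment at 0.05. CPM levels divide by the UMIs of the class. Both classes share a library, and their deviations correlated at 0.111 to 0.377 within libraries for other excitatory nuclei. The labels call libraries biological replicates. Genes named were the 15 (5 in the single-class comparisons) with the largest called difference in each direction, of 1 sign in 5 libraries and at 20 CPM or more in the higher class, plus up to 4 called genes per list.

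In simulated data 93.7% of 2-fold changes were recovered for other excitatory nuclei (10.1% of calls false), 78.5% for Cux2 (2.94%), 78.0% for Rorb (6.86%) and 81.3% for Foxp2 nuclei (9.42%). Except for Cux2, the false shares lay above the 0.05 aimed at. The simulation took the dispersions of the fit and, for other excitatory nuclei, changed 95 genes 2-fold and 90 genes 4-fold of 8669. It did not redraw the matched nuclei, so it does not cover the part of the draw. Doublets were scored, not removed. Subgroups used scanpy 1.11.5 (1000 variable genes, 15 components, Leiden resolution 0.5). Alternatives included DESeq2 1.42.0, other scalings, filters, thresholds and leaving out each library.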

Additional observations from a re-analysis of the deposited data

Results flagged for a closer look

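Among 128 sets of 5 library levels, 23 had 1 library far from the other 4 by Dixon's criterion, and chance gives about 5% of sets. Values are CPM in the libraries labelled knockdown control.

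In the Galnt14 Rxfp1 nuclei matched to other excitatory nuclei, 1 library was high for Pappa2 (72.2), St3gal1 (46.0), Grik3 (381), Eya1 (169.5), Nr4a3 (175) and Sfmbt2 (26.3), and low for Clic5 (5.65). Replicate 2, the library with 16 nuclei, held the high values of Pappa2, St3gal1, Grik3 and Sfmbt2, replicate 1 the high value of Eya1 and the low value of Clic5, and replicate 5 the high value of Nr4a3. In the other excitatory nuclei, 1 library was high for Grik3 (71.8) and Pcdh8 (45.7), and low for Olfm3 (36.0) and Gpc3 (131.6).

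In the comparison with Cux2 nuclei, 1 library stood apart for Grik3 (381) and Gpc3 (19.7) in the Galnt14 Rxfp1 nuclei and for Sema3e (13.2) in the Cux2 nuclei. In that with Rorb nuclei, this held for Eya1 (163) and Zbtb7c (13.1) in the Galnt14 Rxfp1 nuclei and for Sema3e (48.4) in the Rorb nuclei. In that with Foxp2 nuclei, it held for Col8a1 (6.57), Lama2 (56.9) and Plce1 (2.45) in the Galnt14 Rxfp1 nuclei, and for Col8a1 (13.0), Plce1 (111) and Zfpm2 (420) in the Foxp2 nuclei. The part of library size in these values was not tested.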

How the results depend on the processing

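The counts of genes moved with depth matching, the block, the tool, the UMI minimum of the rule genes and the glial setting, and the cause was not tested. Higher and lower counts against other excitatory nuclei were 364 and 524, and became 235 and 329 with DESeq2, 161 and 290 without the replicate block, 1310 and 1493 without depth matching, and 207 and 324 with at least 4 UMIs of both rule genes. With at least 2 the higher count was 601, and without nuclei of 3 or more glial or vascular UMIs both were 0, on the 7 depth-matched nuclei a class that were left. Against Cux2 nuclei they were 430 and 510 with DESeq2, 459 and 508 without the replicate block, and 1271 and 1309 unmatched. Against Rorb nuclei they were 146 and 208 with DESeq2, 134 and 184 without the replicate block, 1013 and 1223 unmatched, and 460 and 596 with at least 2 UMIs. Against Foxp2 nuclei they were 1078 and 916 unmatched, in all fewer than against Rorb nuclei unmatched, and the lower count was 776 with at least 2 UMIs. Leaving out 1 replicate gave 255 to 378 higher and 372 to 515 lower for other excitatory nuclei, 538 to 757 and 594 to 796 for Cux2, 154 to 273 and 214 to 341 for Rorb, and 374 to 554 and 307 to 486 for Foxp2. The share of Galnt14 Rxfp1 nuclei was 1.26% of nuclei and 6.66% of excitatory nuclei with at least 2 UMIs, and 0.019% and 1.41% in the glial setting, where Galnt14 was at 489.9 CPM and Rxfp1 at 569.7 CPM. The Drd2 share was 16.98% with at least 4 UMIs and 6.24% after thinning, and the Slc26a4 share 16.2% after thinning. A log2 difference changed sign for Htr2c with at least 2 UMIs (0.19), Cdh13 in the glial setting (0.085) and Slc4a10 unmatched (0.11). Of 1200 gene values under alternatives against other excitatory nuclei, 1139 kept direction and call, as did 827 of 850 for Cux2, 606 of 700 for Rorb and 754 of 804 for Foxp2. These values are of genes chosen for large called differences, 76 of them against other excitatory nuclei. Of all 888 genes called there, 707 kept their call in a second draw of matched nuclei and 678 without doublet scores of 0.25 or more. With DESeq2 554 did, with at least 4 UMIs of both rule genes 474, and without the block 448. The second draw of matched nuclei was chosen after seeing the data. Knockdown and stress were not compared because 12 libraries could not be tied to a group. Of the 167 nuclei with Drd2, 89 held 1 UMI, so a nucleus without a Drd2 UMI is not shown to lack the transcript.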
